A study of Mus musculus with 4 samples.

Results

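The 45 genes described here act in DNA replication and S phase. They were chosen by gene symbol from the known machinery, with earlier results of these data known. Each was found in the deposited table, as 45 of its 17454 genes. The RNA came from hepatic double negative T cells of adult C57BL/6 mice, live cells sorted as CD45+ and CD3+ and as NK1.1-, CD4- and CD8-. A methionine-choline deficient diet, a common way to bring about steatohepatitis in mice, was compared with a normal diet, with 2 libraries for each diet. The labels name no genetic change in either group and say neither how long the diet lasted nor how many animals gave each library, so the p-values cover the variation among the 4 libraries, which may be technical. Values were taken as FPKM, a level divided by transcript length and by the number of mapped fragments, so that genes of different length can be compared.

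DNA is copied once per cell cycle. Origins of replication are licensed in G1, when the origin recognition complex, CDC6 and CDT1 load the ring-shaped MCM2-7 helicase onto DNA, and are fired in S phase, when CDC45 and the GINS complex join the ring. DNA polymerases, a sliding clamp and its loader then copy both strands, while dedicated enzymes supply deoxynucleotides and histone chaperones rebuild chromatin. Most of these genes are targets of the E2F transcription factors, whose activity rises as a cell leaves G1. Resting T cells express many of them at low levels, and activated, dividing T cells at high levels.

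In the deficient diet libraries 6 of the 45 genes fell and none rose: Mcm10, Ccne1, Mcm3, Mcm2, Lig1 and Rrm2. The test was limma on log2(FPKM + 1) over the 10423 genes that reached 1 FPKM in 2 or more libraries, at a Benjamini-Hochberg adjusted p of 0.05. Of all genes tested, 2.74% passed, 1.53% as lower and 1.22% as higher, beside 13.3% of the 45 genes passing as lower. The fitted log2 change was negative for 44 of 45 genes (46.8% of all genes tested), with a median of -0.76 beside 0.04 over all genes tested. Both deficient diet libraries lay below both normal diet libraries for 39 of 45 genes, as they did for 25.5% of all genes tested, and none of the 45 showed the opposite order, which 30.7% of all genes tested did. At an unadjusted p under 0.05, 28 of 45 genes were lower, beside 10.9% of all genes tested, and none was higher. The 45 genes were chosen with earlier results of these data known, so these shares describe the list and give no independent support. The count of 6 depended on the libraries. In limma 0 of the 45 passed with deficient diet replicate 1 left out (23 at an unadjusted p under 0.05) and 0 of the 45 with deficient diet replicate 2 left out (24). Only 38 of the 45, without Mcm10 and Rrm2, passed the filter on low values with either normal diet library left out, and 0 of the 38 passed the test with normal diet replicate 1 left out (16). Without normal diet replicate 2, Ccne1 alone of the 38 passed. With 1 library left out the spread comes from the pair of libraries that remains on the other diet.

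Each of the 45 genes passed the filter on low values, and none was listed at 0 in any library. For 7 of them, among these Mcm10 and Rrm2, only the normal diet libraries reached 1 FPKM, so that these genes entered the test through the group in which they are high. Of the other 38 genes, 4 fell, 37 had a negative fitted log2 change and 22 were lower at an unadjusted p under 0.05. Both deficient diet libraries lay below both normal diet libraries for 32 of the 38, as they did for 25.5% of all genes tested. The median log2 change of the 38 was -0.68. The summed FPKM of the 45 genes was 735.8 and 729.7 in the deficient diet libraries, against 1157 and 1222 in the normal diet libraries. The sums did not overlap between the diets. In a bulk library, fewer cells in S phase and less RNA per cell cannot be told apart.

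**Figure D1:**
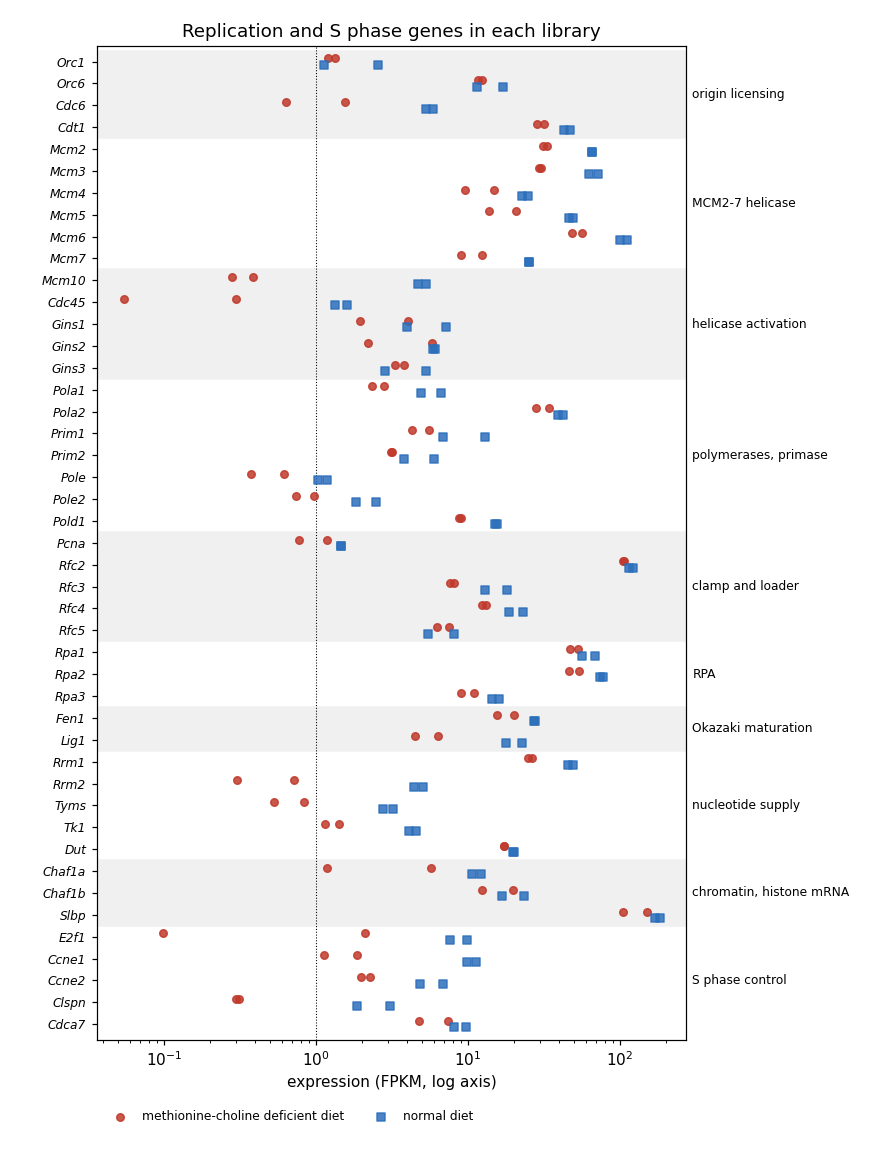
Expression in FPKM (log axis) of the 45 replication and S phase genes, grouped by role, in the deficient diet libraries (red circles) and the normal diet libraries (blue squares), 1 point per library, with a dotted line at 1 FPKM. Both red points lie to the left of both blue points for 39 genes, an order that 25.5% of all genes tested showed. Mcm10, Cdc45, Rrm2, Tyms, Clspn, Pole2 and Pole lie under 1 FPKM on the deficient diet alone.

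The libraries themselves were alike in size. Their values summed to between 370112 and 389403 FPKM, and between 9712 and 10435 genes reached 1 FPKM. FPKM values keep no read counts, so the depth is unknown. Among genes listed under 0.05 FPKM, where few reads set a value, the commonest ratio between libraries differed from equality by at most 10.2%. That ratio was held by 12 to 47 of the 271 to 380 such genes of a pair. It is therefore a weak guide to relative depth. Of 9 genes of T cells and of the sort, 7 were lower and 2 higher on the deficient diet in both libraries, and none passed. Of all genes tested, 25.5% were lower and 30.7% higher in the same way. The CD3 subunit Cd3e stood at 496.1 and 700.3 FPKM in deficient diet libraries and at 460.0 and 348.3 FPKM in normal diet libraries. Its partners went the other way, with Cd3d at 110.7 and 128.8 FPKM on the deficient diet against 154.9 and 128.9 FPKM on the normal diet, and Cd3g at 123.7 and 143.7 FPKM on the deficient diet against 211.9 and 151.4 FPKM on the normal diet. Ptprc, which encodes CD45, had 209.2 and 219.6 FPKM on the deficient diet against 423.8 and 309.3 FPKM on the normal diet (limma adjusted p = 0.115). Cd4, which the sort should remove, had 0.618 and 2.44 FPKM on the deficient diet against 3.86 and 4.11 FPKM on the normal diet, and Cd8a 0.836 and 1.42 FPKM on the deficient diet against 22.4 and 8.26 FPKM on the normal diet. Klrb1c encodes NK1.1 and had 5.34 and 2.96 FPKM on the deficient diet against 18.3 and 13.8 FPKM on the normal diet.

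Genes of origin licensing differed among themselves. Cdc6, the ATPase that brings the helicase to the origin complex, stood at 0.634 and 1.56 FPKM in deficient diet libraries and at 5.31 and 5.85 FPKM in normal diet libraries. The groups did not overlap, and the log2 change of -1.69 ± 0.32 (SE) did not pass (limma adjusted p = 0.0677). Cdt1, its partner in helicase loading, was far more abundant, with 31.6 and 28.5 FPKM on the deficient diet and 46.9 and 42.9 FPKM on the normal diet (adjusted p = 0.124). For the origin recognition subunits the diets overlapped. Orc1 had 1.34 and 1.21 FPKM on the deficient diet against 2.57 and 1.13 FPKM on the normal diet, and Orc6 12.4 and 11.7 FPKM on the deficient diet against 11.5 and 17.1 FPKM on the normal diet. Their 95% intervals, from -1.19 to 0.63 and from -0.84 to 0.43 on the log2 scale, leave room for a fall of about the size seen in the helicase genes for Orc1, and for a smaller one for Orc6.

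The 6 subunits of the MCM2-7 helicase, which form 1 ring with 1 copy of each, had similar changes. Mcm2 fell, with 31.3 and 33.2 FPKM in deficient diet libraries and 65.7 and 65.5 FPKM in normal diet libraries, a log2 change of -1.002 ± 0.14 (SE) with a limma adjusted p of 0.0441. Mcm3 fell as well, with 29.5 and 30.1 FPKM on the deficient diet against 62.3 and 71.6 FPKM on the normal diet, by 1.14 ± 0.15 (SE) on the log2 scale (adjusted p = 0.0413). In both genes the libraries of a diet lay close together and the diets far apart. Mcm6, the most abundant subunit, had 48.4 and 56.4 FPKM on the deficient diet and 100.3 and 110.9 FPKM on the normal diet, with an adjusted p of 0.0511, just short of the threshold. Mcm5 had 13.7 and 20.8 FPKM on the deficient diet against 45.9 and 49.0 FPKM on the normal diet, the widest difference of the ring at -1.44 ± 0.23 (SE, adjusted p = 0.0543). Mcm7, with 12.4 and 9.06 FPKM on the deficient diet against 25.4 and 25.3 FPKM on the normal diet, and Mcm4, with 9.59 and 14.9 FPKM on the deficient diet against 22.7 and 25.0 FPKM on the normal diet, had adjusted p of 0.0604 and 0.124. For each of the 6 subunits both deficient diet libraries lay below both normal diet libraries, as they did for 25.5% of all genes tested. The 95% interval of each log2 change lay below 0. By mean FPKM the subunits were between 1.94-fold (Mcm4) and 2.75-fold (Mcm5) lower on the deficient diet.

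The make-up of the ring transcripts was similar in the 4 libraries. Mcm6 gave 33.4% and 34.3% of the FPKM summed over the 6 subunits in deficient diet libraries and 31.1% and 31.9% in normal diet libraries. Mcm2 and Mcm3 came next in each library, each with between 18.3% and 21.6%. Mcm5 gave 9.47% and 12.6% on the deficient diet against 14.2% and 14.1% on the normal diet, the largest shift of a share. Mcm4 and Mcm7 were the least abundant throughout. No test was made of these shares, and since they share a denominator they are not independent.

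**Figure D2:**
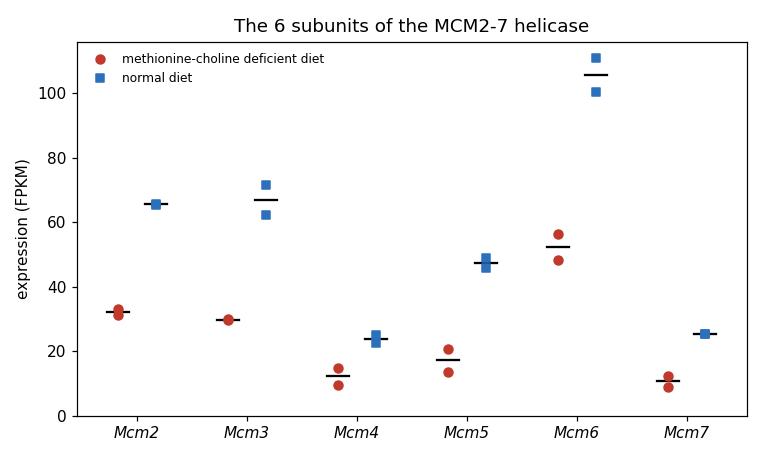
Expression in FPKM of the 6 MCM2-7 subunit genes, with deficient diet libraries (red circles) to the left of normal diet libraries (blue squares) for each gene, 1 point per library and a black line at the mean of 2. Mcm6 is highest in every library, and in each gene both red points lie below both blue points.

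Promoters of 2 genes that fell and of 3 further ring subunits are shown because E2F factors bind short DNA words of a known kind. In RefSeq promoters of the build GRCm38.p6, taken from 250 bases before to 50 bases after the annotated start, the words TTTCCCGC, TTTGGCGC, TTTCGCGC and TTTGCCGC were searched on both strands. The rule was to print, for each role, the called gene with the largest change whose promoter holds a word, which gave Mcm3 (chr1:20820263-20820562, minus strand) and Lig1 (chr7:13278576-13278875, plus strand). Shorter windows, chosen after the values were seen, show Mcm5 (chr8:75109336-75109383, plus strand), Mcm6 (chr1:128359788-128359835, minus strand) and Mcm7 (chr5:138172021-138172068, minus strand). Each is written 5′ to 3′ on the strand of its gene, and capitals mark the words.
Mcm3: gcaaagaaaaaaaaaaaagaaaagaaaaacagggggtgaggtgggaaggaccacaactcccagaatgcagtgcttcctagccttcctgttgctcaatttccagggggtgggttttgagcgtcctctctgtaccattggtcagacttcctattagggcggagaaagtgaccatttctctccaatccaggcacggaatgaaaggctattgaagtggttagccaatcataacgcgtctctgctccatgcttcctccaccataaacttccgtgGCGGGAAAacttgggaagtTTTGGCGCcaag
Lig1: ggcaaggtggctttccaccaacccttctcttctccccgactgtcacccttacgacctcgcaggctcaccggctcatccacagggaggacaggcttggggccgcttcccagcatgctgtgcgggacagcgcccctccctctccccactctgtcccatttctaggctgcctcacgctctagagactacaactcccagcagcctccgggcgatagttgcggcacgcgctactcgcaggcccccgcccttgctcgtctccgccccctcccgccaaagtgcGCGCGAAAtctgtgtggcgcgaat
Mcm5: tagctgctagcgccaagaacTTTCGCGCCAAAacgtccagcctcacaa
Mcm6: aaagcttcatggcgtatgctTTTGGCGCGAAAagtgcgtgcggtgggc
Mcm7: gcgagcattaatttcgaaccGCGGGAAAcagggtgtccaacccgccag
In Mcm5 and Mcm6 the capitals are 2 words that overlap, 1 on each strand, with TTTCGCGC and TTTGGCGC in either order. In Mcm3 both words lie after the start, at 20 and 39 bases, within the first transcribed bases. The word of Lig1 begins 27 bases after the start of 1 of its annotated promoters.

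A word was found in 15 of the 38 genes with a promoter in the table, or 39.5%, beside 4.83% of the genes tested that have one and 2.60% of all genes with one. The median G and C content of these promoters was 61.3% for the 38 genes and 62.0% for the genes tested. Of the ring subunits with a promoter, 4 of 5 held a word and Mcm2 did not. Origin licensing genes did so in 3 of 4 (Orc1, Cdc6 and Cdt1), and Pola1, Pole2, Pold1, Gins3, Rfc3, Clspn and Cdca7 did so too. In all 21 words were found, 12 beginning before the start and 9 after it, between positions -165 and 40. Of the called genes, Mcm10, Ccne1, Mcm2 and Rrm2 held none, which says only that these letters are not in this window. The median log2 change was -0.92 for the 15 genes with a word and -0.65 for the 23 without, and both groups ranged widely, from -1.73 to -0.12 and from -2.39 to 0.04. The CCAAT word, also searched on both strands, stood in 57.9% of the 38 genes. It stood in 43.4% of the genes tested and in 41.1% of all genes with a promoter. In the mitosis and G2/M list an E2F word stood in 1 of 17 promoters and CCAAT in 15 of 17. Ccne2, Gins1, Gins2, Mcm4, Pole, Prim2 and Rfc2 were not matched. These shares are descriptions and were not tested.

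Among the factors that turn the loaded ring into an active helicase, Mcm10 fell most. It had 0.281 and 0.383 FPKM in deficient diet libraries and 4.67 and 5.30 FPKM in normal diet libraries, which is 15.02-fold lower by mean FPKM, with a log2 change of -2.17 ± 0.26 (SE) and a limma adjusted p of 0.0365. Both deficient diet values are under 1 FPKM, where the pseudocount of 1 makes the log2 change smaller than the ratio. Cdc45, which travels with the ring at the fork, had 0.0543 and 0.299 FPKM on the deficient diet against 1.33 and 1.60 FPKM on the normal diet, 8.31-fold lower by mean FPKM, and did not pass (adjusted p = 0.125). The GINS subunits among the 45 genes were more even. Gins2 had 2.21 and 5.77 FPKM on the deficient diet against 6.09 and 5.87 FPKM on the normal diet, and Gins1 had 1.94 and 4.06 FPKM on the deficient diet against 3.95 and 7.13 FPKM on the normal diet. Gins3 had 3.30 and 3.77 FPKM on the deficient diet against 2.85 and 5.34 FPKM on the normal diet. Gins1 and Gins3 overlapped between the diets, and the deficient diet libraries differed by 2.10-fold in Gins1 and 2.61-fold in Gins2. Gins4, the GINS subunit outside the 45, was more abundant and went the other way. It had 79.0 and 70.2 FPKM on the deficient diet against 59.6 and 54.2 FPKM on the normal diet (limma adjusted p = 0.220).

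No gene of the 7 for polymerases and primase passed. For each of them both deficient diet libraries lay below both normal diet libraries, as they did for 25.5% of all genes tested. Pola2, a subunit of the polymerase that starts each new strand, was the most abundant, with 34.2 and 28.2 FPKM in deficient diet libraries and 39.0 and 42.2 FPKM in normal diet libraries, a log2 change of -0.37 ± 0.17 (SE, limma adjusted p = 0.275). Pola1, the catalytic subunit of the same enzyme, had 2.79 and 2.35 FPKM on the deficient diet against 6.68 and 4.88 FPKM on the normal diet. Pold1, the catalytic subunit of the lagging strand polymerase, had 8.76 and 9.07 FPKM on the deficient diet against 14.99 and 15.5 FPKM on the normal diet, with a narrow spread within each diet and an adjusted p of 0.109. Pole and Pole2, of the leading strand polymerase, were low throughout. Pole had 0.620 and 0.375 FPKM on the deficient diet against 1.04 and 1.18 FPKM on the normal diet. Pole2 had 0.744 and 0.970 FPKM on the deficient diet against 1.83 and 2.49 FPKM on the normal diet. The primase subunit Prim1 had 5.52 and 4.31 FPKM on the deficient diet against 6.83 and 12.99 FPKM on the normal diet. Its partner Prim2 had 3.19 and 3.11 FPKM on the deficient diet against 3.77 and 5.96 FPKM on the normal diet. Over the 7 genes the log2 changes ran from -0.92 to -0.37.

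None of the genes of the clamp, its loader and the single-strand binding protein RPA passed, and several were abundant. Rfc2, a loader subunit, had 105.8 and 104.5 FPKM in deficient diet libraries and 114.3 and 121.1 FPKM in normal diet libraries. Its log2 change of -0.16 had a 95% interval from -0.50 to 0.18, which leaves out a change as large as that of Mcm2. Rfc5 was the 1 gene of the 45 with a positive fitted change, 7.51 and 6.26 FPKM on the deficient diet against 5.44 and 8.13 FPKM on the normal diet, and its sign turned without deficient diet replicate 1 (-0.08) or without normal diet replicate 1 (-0.22). Rfc3, with 7.65 and 8.05 FPKM on the deficient diet against 12.9 and 18.1 FPKM on the normal diet, and Rfc4, with 12.5 and 13.2 FPKM on the deficient diet against 18.8 and 22.9 FPKM on the normal diet, did not overlap between the diets and did not pass (adjusted p = 0.118 and 0.135). The loader subunits spanned log2 changes from -0.88 to 0.04. Pcna, the sliding clamp itself, was listed at only 1.18 and 0.773 FPKM on the deficient diet against 1.46 and 1.47 FPKM on the normal diet. Processed copies of Pcna and of Tyms exist in the mouse genome, and how reads shared with them were counted is not given in the sources used here, so the levels of both genes are uncertain. Of the RPA subunits, which coat single-stranded DNA, Rpa2 had 46.1 and 54.1 FPKM on the deficient diet against 77.9 and 73.6 FPKM on the normal diet (adjusted p = 0.116). Rpa3 had 10.95 and 8.96 FPKM on the deficient diet against 14.5 and 15.9 FPKM on the normal diet, and Rpa1 had 46.9 and 53.3 FPKM on the deficient diet against 68.1 and 55.9 FPKM on the normal diet. In each of the 3 both deficient diet libraries lay below both normal diet libraries, as they did for 25.5% of all genes tested.

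Lig1, the ligase that seals the fragments of the lagging strand, fell to 6.38 and 4.49 FPKM in deficient diet libraries, against 17.8 and 22.8 FPKM in normal diet libraries. The deficient diet mean was 26.8% of the normal diet mean, with a log2 change of -1.73 ± 0.25 (SE) and a limma adjusted p of 0.0462. With a pseudocount of 0.1 it missed the threshold. Fen1, the nuclease that trims the same fragments, was higher in level and differed less, with 15.4 and 20.2 FPKM on the deficient diet against 27.1 and 27.8 FPKM on the normal diet and a log2 change of -0.61 ± 0.19 (SE, adjusted p = 0.159).

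Enzymes that supply deoxynucleotides split in the same way. Rrm2, the small subunit of ribonucleotide reductase, fell to 0.302 and 0.718 FPKM in deficient diet libraries, against 4.39 and 5.04 FPKM in normal diet libraries, a log2 change of -1.93 ± 0.28 (SE) with a limma adjusted p of 0.0470 that was also lost with a pseudocount of 0.1. Rrm2 protein is made in S phase, whereas the large subunit is present through the cycle. Rrm1, that large subunit, had 26.4 and 24.7 FPKM on the deficient diet against 49.1 and 45.7 FPKM on the normal diet, with a log2 change of -0.87 ± 0.15 (SE) and an adjusted p of 0.0555. Tyms, thymidylate synthase, had 0.835 and 0.527 FPKM on the deficient diet against 2.75 and 3.23 FPKM on the normal diet, and Tk1, thymidine kinase, had 1.15 and 1.41 FPKM on the deficient diet against 4.57 and 4.10 FPKM on the normal diet. Neither overlapped between the diets and neither passed (adjusted p = 0.0868 and 0.0773). Dut, which keeps uracil out of DNA, had 17.3 and 17.3 FPKM on the deficient diet against 19.9 and 20.1 FPKM on the normal diet, with an interval from -0.61 to 0.21.

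Genes of chromatin assembly and histone mRNA were uneven between the deficient diet libraries. Slbp, which binds the stem-loop of histone mRNA and was the most abundant of the 45 genes by its normal diet mean, had 150.3 and 104.2 FPKM on the deficient diet and 170.2 and 182.4 FPKM on the normal diet (limma adjusted p = 0.262). Chaf1a, the large subunit of chromatin assembly factor 1, stood at 1.18 and 5.74 FPKM on the deficient diet against 12.1 and 10.6 FPKM on the normal diet. Its deficient diet libraries differed 4.85-fold, and the log2 change of -1.69 ± 0.57 (SE) did not pass (adjusted p = 0.175). Chaf1b, its partner subunit, had 12.4 and 19.8 FPKM on the deficient diet against 16.7 and 23.3 FPKM on the normal diet and overlapped between the diets.

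The regulators of S phase entry had, by summed FPKM, the largest ratio between the diets of the 10 roles, with sums of 11.04 and 11.2 in deficient diet libraries and 38.0 and 35.1 in normal diet libraries. Ccne1, cyclin E1, which drives the kinase that starts S phase, fell to 1.88 and 1.12 FPKM on the deficient diet, against 11.3 and 9.90 FPKM on the normal diet, a log2 change of -2.23 ± 0.27 (SE) with a limma adjusted p of 0.0369. Ccne2, cyclin E2, had 1.97 and 2.27 FPKM on the deficient diet against 6.87 and 4.80 FPKM on the normal diet (adjusted p = 0.105). E2f1, an activating E2F factor, had the largest log2 change of the 45 genes, -2.39 ± 0.55 (SE), and did not pass (adjusted p = 0.0934). Its deficient diet libraries, at 2.11 and 0.0993 FPKM, differed 21.3-fold. Its normal diet libraries stood at 9.88 and 7.66 FPKM. Clspn, a mediator of the replication checkpoint, had 0.297 and 0.313 FPKM on the deficient diet against 1.85 and 3.07 FPKM on the normal diet, and Cdca7, a target of Myc and E2F factors, had 4.79 and 7.39 FPKM on the deficient diet against 8.08 and 9.65 FPKM on the normal diet. In each of the 5 genes both deficient diet libraries lay below both normal diet libraries, as they did for 25.5% of all genes tested.

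**Figure D3:**
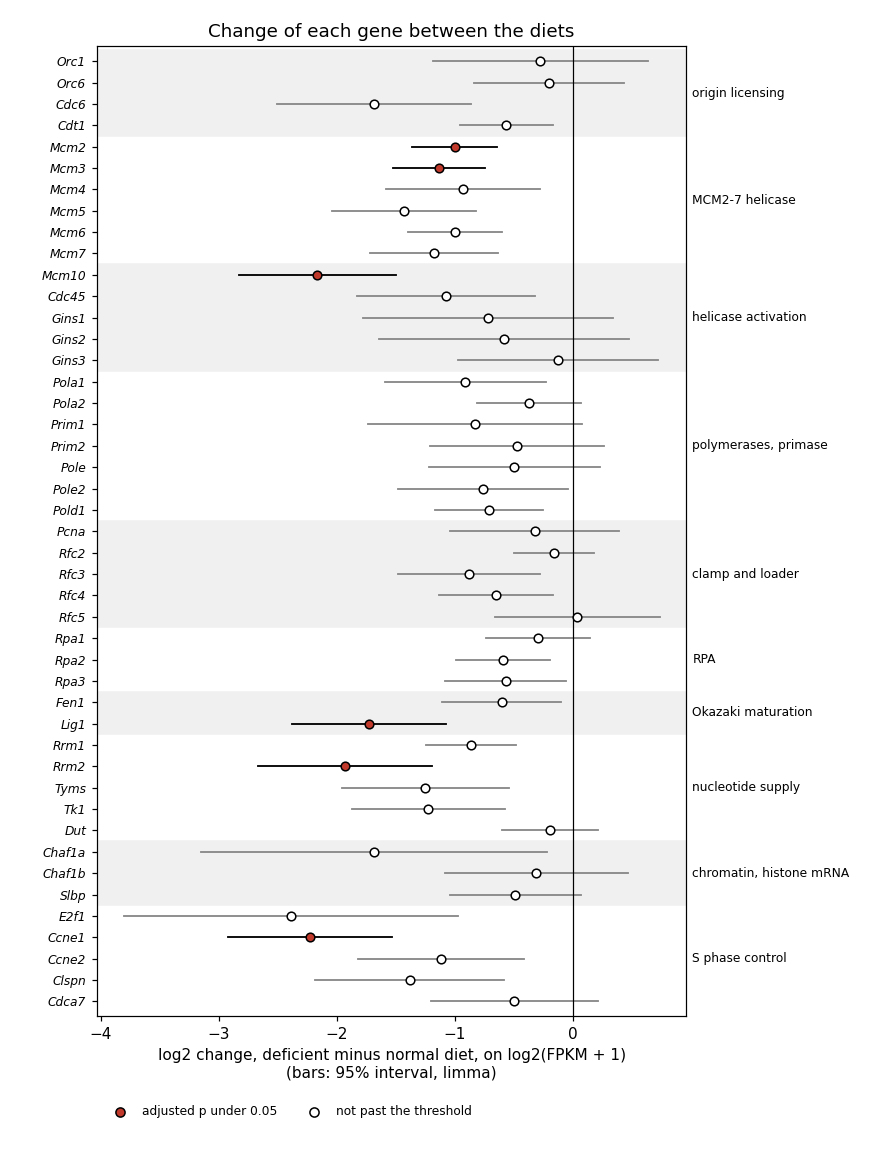
Log2 change (deficient minus normal diet, on log2(FPKM + 1)) of each of the 45 genes with its 95% interval from limma, grouped by role, with filled points for the 6 genes past an adjusted p of 0.05. The interval lies below 0 for 28 genes, among them the 6 ring subunits, and spans 0 for 17, among them Orc1, Orc6, Rfc2, Rfc5, Rpa1, Dut and Slbp.

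Ratios between the diets were also read, as a description. By ratio 8 of the 45 genes were at least 4-fold lower, Mcm10, Rrm2, Cdc45, Clspn, E2f1, Ccne1, Cdc6 and Tyms. The same count was not made over all genes tested, so how unusual 8 of 45 is cannot be said. Of these 8, 5 (Mcm10, Rrm2, Cdc45, Clspn and Tyms) reached 1 FPKM on the normal diet alone, so that the count rests mostly on genes that entered the test through the group in which they are high. The median of the 45 was 1.94-fold. Within a diet, the libraries differed by a median of 1.23-fold on the deficient diet and 1.14-fold on the normal diet. More than 2-fold differences were seen in 7 genes between deficient diet libraries (Cdc6, Cdc45, Gins1, Gins2, Rrm2, Chaf1a and E2f1) and in 1 gene, Orc1, between normal diet libraries.

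Other genes of the pathway, from lists of 92 genes in 6 groups of which 85 were tested, gave 4 falls and no rise in limma. The falls were 4.71% of the 85, beside 1.53% of all genes tested. At an unadjusted p under 0.05, 17 of the 85 were lower, beside 10.9% of all genes tested. The median log2 change of the 85 was -0.25. Among 26 tested replication genes outside the 45, 17 had a negative fitted log2 change (46.8% of all genes tested). Their median was -0.36, and 1 gene fell (3.85%). It was Dscc1, a subunit of an alternative clamp loader (1.44 and 0.827 FPKM on the deficient diet, 6.35 and 7.95 on the normal diet, adjusted p = 0.0462). Of 10 chromatin factors Asf1b, a histone chaperone, fell (2.85 and 3.53 FPKM on the deficient diet against 18.6 and 19.1 FPKM on the normal diet, adjusted p = 0.0323), as did Uhrf1, which brings maintenance methylation to new DNA (3.74 and 3.88 FPKM on the deficient diet against 11.9 and 13.9 FPKM on the normal diet, adjusted p = 0.0441). Of 9 genes for G1 cyclins, cyclin A and their kinases Ccna2, cyclin A2, fell (1.76 and 2.45 FPKM on the deficient diet against 10.8 and 14.1 FPKM on the normal diet, adjusted p = 0.0392). These calls depended on the libraries as well, since 0 passed with either deficient diet library or normal diet replicate 1 left out, and 1 with normal diet replicate 2 left out.

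None of 10 E2F and RB family genes, 10 inhibitors of cyclin-dependent kinases and antiproliferative genes or 20 genes of nucleotide synthesis and salvage passed in limma. At an unadjusted p under 0.05, 3, 0 and 1 of them were lower, beside 10.9% of all genes tested. Higher at that level were Cdkn1a and Tob2 of the inhibitor list and Atic of the nucleotide list, as were 1238 of the 10423 genes tested. E2f4, a repressor E2F and the most abundant of its list, had 97.9 and 38.1 FPKM on the deficient diet and 126.9 and 104.9 on the normal diet (adjusted p = 0.325), and Rbl2, a pocket protein of resting cells, had 32.5 and 32.1 FPKM on the deficient diet against 30.1 and 24.7 FPKM on the normal diet (adjusted p = 0.466). Btg2 and Btg1, antiproliferative genes, were the most abundant of theirs. Btg2 had 880.3 and 1031 FPKM on the deficient diet against 976.3 and 941.0 FPKM on the normal diet. Btg1 had 285.2 and 167.5 FPKM on the deficient diet against 245.9 and 275.4 FPKM on the normal diet, and neither passed (adjusted p = 0.982 and 0.651). Cdkn1a, Tob2 and Atic were singled out after their values were seen. Cdkn1a, the kinase inhibitor p21, stood at 112.7 and 105.2 FPKM on the deficient diet and 15.7 and 35.4 FPKM on the normal diet, a log2 change of 2.16 ± 0.39 (SE) that did not pass (adjusted p = 0.0604). Tob2 had 117.0 and 144.3 FPKM on the deficient diet against 67.3 and 45.6 FPKM on the normal diet (limma adjusted p = 0.0726). Atic had 8.62 and 10.7 FPKM on the deficient diet against 4.14 and 6.10 FPKM on the normal diet (limma adjusted p = 0.167). Nucleotide synthesis genes had a median log2 change of 0.17, and Paics and Samhd1 were the most abundant. Paics, of purine synthesis, had 75.4 and 84.1 FPKM on the deficient diet against 90.4 and 86.3 FPKM on the normal diet. Samhd1, which breaks down deoxynucleotides, had 42.3 and 38.1 FPKM on the deficient diet against 45.6 and 58.9 FPKM on the normal diet. Purine and pyrimidine synthesis also serves RNA and cofactors, while the 5 nucleotide supply genes above serve DNA.

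Mitosis and G2/M genes were read beside the replication genes, and the difference between the lists was not tested. Of 19 tested, 12 fell (63.2%, beside 13.3% of the 45 genes and 1.53% of all genes tested), with a median log2 change of -1.997. Plk1, Ccnb1, Ccnb2, Cenpe and Cenpf reached 1 FPKM in the normal diet libraries alone. They thus entered the test through the group in which they are high, and Plk1 is among the 12. Mki67, a marker of cycling cells, had 0.998 and 1.19 FPKM in deficient diet libraries and 8.35 and 6.07 FPKM in normal diet libraries (limma adjusted p = 0.0441), and Top2a, which untangles copied DNA, 2.87 and 2.51 FPKM on the deficient diet against 17.9 and 19.3 FPKM on the normal diet (adjusted p = 0.0323). The 4 largest falls were those of Cdca8, Aurkb, Birc5 and Kif11, at log2 changes of -3.25, -3.03, -2.85 and -2.76. The count of 12 depended on the libraries too. It was 0 of 19 with deficient diet replicate 1 left out (17 at an unadjusted p under 0.05), 0 of 19 with deficient diet replicate 2 left out (17), 0 of 14 tested with normal diet replicate 1 left out (14) and 9 of 14 tested with normal diet replicate 2 left out. With the replicate number as a block, limma called 0 of 19 (17 at an unadjusted p under 0.05).

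**Figure D4:**
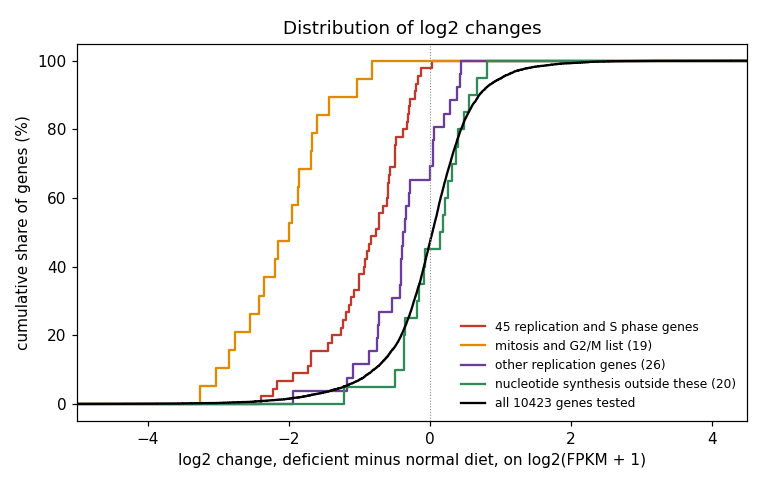
Cumulative share of genes (%) against log2 change, deficient minus normal diet, for the 45 replication and S phase genes (red), the mitosis and G2/M list (orange), other replication genes (purple), nucleotide synthesis genes outside the 45 (green) and all 10423 genes tested (black). The red curve crosses 50% at -0.76, between the orange curve at -1.997 and the black curve at 0.04.

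Markers of other cells were read beside these values, and their part in them was not tested. Natural killer and CD8 effector markers moved with the diets. For 9 of 9 tested, both deficient diet libraries lay below both normal diet libraries, as for 25.5% of all genes tested. In limma 4 of them were lower past the threshold (Klre1, Gzmb, Gzma and Klrd1), or 44.4% beside 1.53% of all genes tested. The summed level of the list was 152.0 and 172.0 FPKM in deficient diet libraries and 1727 and 969.2 FPKM in normal diet libraries. The other lists varied most between the normal diet libraries, and none of their markers passed. Macrophage markers summed to 1348 and 729.0 FPKM on the deficient diet against 148.8 and 2110 FPKM on the normal diet, with Lyz2 at 1197 and 662.7 FPKM on the deficient diet against 140.4 and 1934 FPKM on the normal diet. Neutrophil markers summed to 261.7 and 288.8 FPKM on the deficient diet against 51.7 and 728.7 FPKM on the normal diet, and sinusoidal endothelial markers to 286.0 and 93.5 FPKM on the deficient diet against 54.3 and 531.9 FPKM on the normal diet. Hepatocyte markers summed to 94.8 and 58.6 FPKM on the deficient diet against 25.3 and 160.0 FPKM on the normal diet, and B cell markers to 44.98 and 36.7 FPKM on the deficient diet against 28.3 and 112.2 FPKM on the normal diet. In at least 1 library Ncr1, Clec4f, Ttr, Fgb, Fabp1, Mpo, Elane and Camp were listed at 0.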

How the data were processed

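RNA sequencing was read from 4 libraries of sorted liver T cells, grouped by the diet in the labels, with columns matched to samples by title. Per the labels' protocols, Trizol was used for RNA and an Illumina TruSeq kit for the libraries. The authors deposited 1 table of 17454 gene symbols whose values were taken here as FPKM. The unit was inferred from the values, which are fractional and total 370112 to 389403 per library. If they are TPM, each library differs by a constant. Bowtie 0.12.2 and the build mm8 are named in the submitters' processing notes. The quantifier and annotation are not stated there. The table holds no coordinates.

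Values were analysed as log2(FPKM + 1) with limma 3.58.1 in R 4.3.3, with a mean-variance trend and diet as the single factor, over the 10423 genes that reached 1 FPKM in 2 or more libraries, and adjusted over all of them. Residual and prior degrees of freedom were 2 and 2.84, and the 95% intervals are not adjusted. No count test was possible without read counts. The members and lists were chosen with earlier results of these data known. Named genes were every member, called list genes up to 4 per list, the 2 most abundant where none passed, and 6 fixed genes. Cdkn1a, Gins4, Tob2 and Atic lie outside that rule and were named after their values were seen. On simulated data for this comparison (10423 genes, 200 changed, 10 runs) the step recovered 5.82% of log2 changes of 1, 66.0% of 2 and 88.8% of 3, with 5.82% of calls false. The changed genes were drawn only from those with a mean log2(FPKM + 1) above 2. The recovery rates therefore do not cover lower genes such as Mcm10, Rrm2, Cdc45 and Clspn. Alternatives were other pseudocounts, filters, scalings, a replicate block, no trend, an adjusted p of 0.10 and leaving out each library.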

Additional observations from a re-analysis of the deposited data

How the results depend on the processing

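Over the processing alternatives the 45 genes kept the sign of their fitted change except in 6 cases, all with 1 library left out and none past the threshold: Orc1 and Rfc5 without normal diet replicate 1, Orc6 and Gins3 without normal diet replicate 2, and Rfc5 and Chaf1b without deficient diet replicate 1. With 1 library left out the log2 changes ran from -0.65 to 0.094 for Orc1, from -0.48 to 0.062 for Orc6, from -0.48 to 0.23 for Gins3, from -0.22 to 0.29 for Rfc5 and from -0.63 to 0.0085 for Chaf1b. The count of 6 members that fell was 3 in limma without the trend, 10 with quantile normalization, 15 at an adjusted p of 0.10, and 0 without a filter on low values, where 29 had an unadjusted p under 0.05. It ran from 0 to 1 with 1 library left out, with 38 members tested where that was a normal diet library. Under the same settings the count of 286 genes over the whole table was 141, 467, 912 and 0 (2768 at an unadjusted p under 0.05), and ran from 0 to 352 with 1 library left out. The count of 4 in the pathway lists was 2 without the trend, 9 at an adjusted p of 0.10 and 0 without a filter (20 at an unadjusted p under 0.05), and ran from 0 to 1 with 1 library left out. With the replicate number as a block, limma called 0 genes, 0 members and 0 genes of the pathway lists. At an unadjusted p under 0.05 that fit gave 1844 genes in either direction (952 lower). It gave 26 members and 17 genes of the pathway lists as lower at that level. Throughout this paragraph, counts over the whole table take both directions, and counts of members and pathway lists take the lower genes alone. The labels give the numbers no shared source, and the deviations of same-numbered libraries correlated at -0.28 over 10423 genes. A crossed pairing, added after seeing the data, called 52 genes, 0 members (29 at an unadjusted p under 0.05) and 0 genes of the pathway lists (16). The median log2 change of the members ran from -0.94 with a pseudocount of 0.1 to -0.51 with a pseudocount of 5, and from -0.82 to -0.63 with 1 library left out. Read depth is unknown, so its limit on low genes such as Cdc45, Clspn and Mcm10 cannot be stated. The causes of these differences were not tested.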
